A study of Mus musculus with 4 samples.

Results

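The 400 cells described here, the members in the plots, are the fat P2 cells with the highest summed level of F3, Clec11a, Fmo2 and Mgp, and they are 400 of the 7141 cells of that library that passed the filters and of 16973 cell barcodes in the whole series. They were chosen by measured values: UMIs (unique molecular identifiers, each standing for 1 captured RNA molecule) of the 4 genes were added, scaled per 10000 UMIs of the cell and ranked. The levels of these 4 genes in the chosen cells are therefore a description of the choice. A kept cell had at least 2000 UMIs, at least 500 genes, at most 10% of UMIs from mitochondrial genes, and 0 UMIs of the endothelial genes Pecam1 and Cdh5. The other 6741 kept cells of the library are the comparison throughout.

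The series profiled vessel progenitor cells of C57BL/6 mice, taken from fat and from lung by sorting, with 1 droplet library for each tissue and each of the populations P1 and P2. Fat P2 and lung P2, the groups used here, were sorted as Tie2 positive, PDGFRa positive, CD31 negative, CD105 low and Sca1 high cells, without CD45 (leukocytes) or Ter119 (erythroid cells). The P1 gate, in contrast, took cells with CD31, high CD105, low Sca1 and no PDGFRa. The mice carried no stated treatment or allele, and their age, sex and number and any pooling are not given in the sources used here. With 1 library per group there was no replicate and no test was possible, so every interval below is a 95% interval for counting error only.

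Fat stroma holds fibroblastic cells at several steps towards the adipocyte. Progenitors of the connective tissue sheath that surrounds the depot carry Dpp4 and Pi16, and cells committed to the adipocyte fate carry Icam1 and Pparg. A further kind is known by its surface protein F3 (tissue factor, the starter of blood clotting) and has been described as restraining adipocyte formation in its neighbours, for which the name regulatory stroma is used. Besides F3 it is known for Clec11a, a secreted bone growth factor, Fmo2, a flavin-containing monooxygenase, Mgp (matrix Gla protein, an inhibitor of calcification that also binds BMPs), Gdf10, a ligand of the TGF-beta family, and Cygb, a globin of fibroblasts.

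The genes of the score lie on 4 chromosomes of mm10 (GRCm38, GENCODE vM21). F3 is on the plus strand of chromosome 3 from 121723537 to 121735048, and Clec11a is on the minus strand of chromosome 7 from 44302687 to 44306902. Fmo2 is on the minus strand of chromosome 1 from 162874317 to 162898726, and Mgp is on the minus strand of chromosome 6 from 136872435 to 136875823. Gdf10 lies on the plus strand of chromosome 14 from 33923587 to 33937983, and Cygb on the minus strand of chromosome 11 from 116645595 to 116654313. Of the 99 genes that the naming rule gave, 74 had an entry in the RefSeq promoter table (GRCm38.p6). The 250 bases before the transcription start are shown for F3 and Gdf10, which were high together in 1 subset of the chosen cells, and for Thbs4 and Cilp, which were high in another (values below). Capitals mark matches to the 6 motifs searched on both strands, and each line runs 5′ to 3′ on the strand of the gene.
F3 (chr3:121723287-121723536): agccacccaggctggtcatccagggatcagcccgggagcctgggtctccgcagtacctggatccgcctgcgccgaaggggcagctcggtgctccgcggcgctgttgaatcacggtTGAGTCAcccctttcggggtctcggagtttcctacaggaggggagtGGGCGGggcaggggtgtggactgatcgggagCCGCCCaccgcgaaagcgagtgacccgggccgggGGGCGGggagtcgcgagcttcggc
Gdf10 (chr14:33923337-33923586): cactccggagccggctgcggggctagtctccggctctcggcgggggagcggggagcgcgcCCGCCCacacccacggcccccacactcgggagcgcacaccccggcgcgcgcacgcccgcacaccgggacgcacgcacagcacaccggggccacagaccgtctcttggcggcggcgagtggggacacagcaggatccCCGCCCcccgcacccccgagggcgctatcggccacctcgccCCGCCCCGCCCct
Thbs4 (chr13:92794819-92795068): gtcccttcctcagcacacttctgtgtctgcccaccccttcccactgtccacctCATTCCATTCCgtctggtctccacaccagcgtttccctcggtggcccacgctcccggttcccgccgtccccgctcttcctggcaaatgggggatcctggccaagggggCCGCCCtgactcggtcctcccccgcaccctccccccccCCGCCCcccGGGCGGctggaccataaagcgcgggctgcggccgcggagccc
Cilp (chr9:65264930-65265179): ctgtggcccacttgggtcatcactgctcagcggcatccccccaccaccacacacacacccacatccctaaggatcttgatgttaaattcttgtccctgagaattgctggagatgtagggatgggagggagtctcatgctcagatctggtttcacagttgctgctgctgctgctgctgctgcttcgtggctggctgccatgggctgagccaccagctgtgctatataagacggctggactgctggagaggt

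The motifs were the TATA box TATAAA, the CCAAT box CCAAT, the GC box GGGCGG, the nuclear receptor motif AGGTCA, the TEAD motif GGAATG and the AP-1 motif TGACTCA. The windows of F3, Gdf10 and Thbs4 held 70.0%, 78.8% and 70.8% G and C and each had GC boxes, a motif found in 32.7% of all 32851 promoter windows of this length. F3 also had 1 AP-1 match, 135 bases before the start, and 4.46% of windows held that motif. Thbs4 had overlapping TEAD matches 197 and 192 bases before its start, and 12.6% of windows held that motif. Cilp had 56.0% G and C and a match to none of the 6 motifs, of which TATAAA was in 12.4%, CCAAT in 33.9% and AGGTCA in 14.0% of windows. Only the exact letters were searched, so a variant such as tatataa near the end of the Cilp window was not counted. For Cilp 0 annotated transcripts matched both this start and the bases after it, against 1 for each other gene. A match describes letters in a window and not a bound site.

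Mgp carried most of the score. It gave 70.2% of the summed score of the chosen cells, Fmo2 14.8%, F3 12.8% and Clec11a 2.26%, and it made up more than 50% of the score in 297 of the 400. The highest cell reached 262 UMIs of the 4 genes per 10000, the cell at rank 200 had 46.5 and the cell at rank 400 had 22.1. There was no gap at the limit, where ranks 399 and 400 stood at 22.2 and 22.1 and the first 2 cells outside it at 22.0 and 22.0. Of the other 6741 cells 4555 had none of the 4 genes. All 4 genes were seen in 110 of the chosen cells, 3 in 142, 2 in 94 and only 1 in 54, and in these 54 the single gene was Mgp each time.

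**Figure D1:**
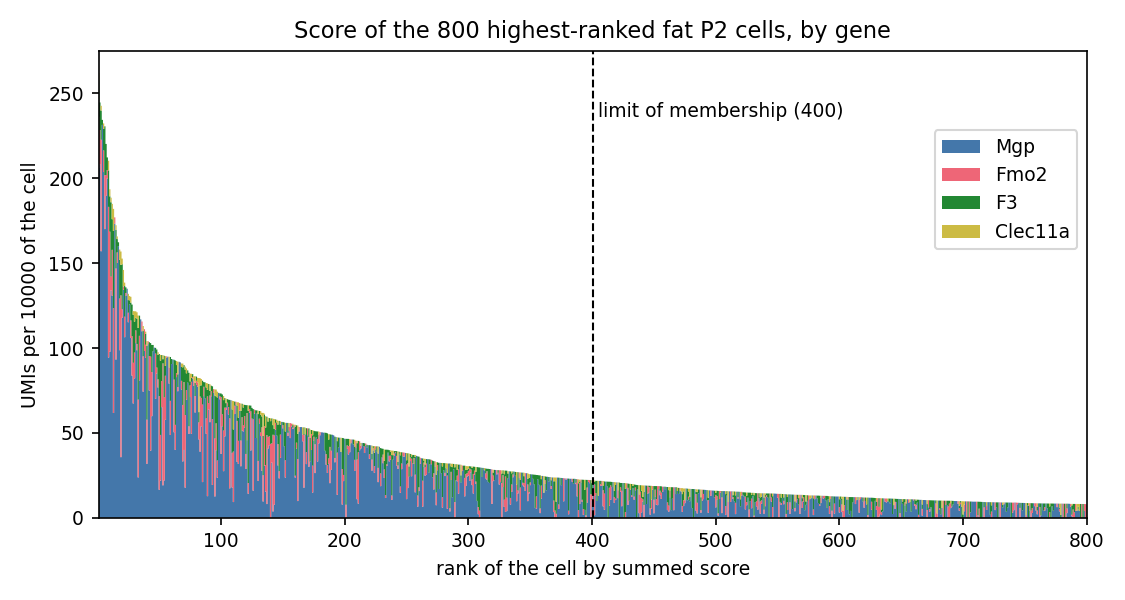
Summed score of the 800 highest-ranked fat P2 cells. The x axis is the rank, the y axis gives UMIs per 10000 of the cell, and the colours split each cell's score by gene. The score falls from 262 to 22.1 at rank 400 (dashed line) with no step there, and Mgp fills most of the area.

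The chosen cells summed to 2189366 UMIs and the others to 40049576. The median cell had 4979 UMIs and 1982 genes among the chosen and 5439 UMIs and 2173 genes among the others, and mitochondrial genes took 3.23% and 2.86%. Of the chosen cells' barcodes 2 also occurred in the library labelled fat P1, 0 in lung P2 and 1 in the library labelled lung P1.

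Gdf10 and Cygb are the given markers that the score did not use. The markers were set with earlier results of these data known, so they are no independent check of the label. Values are in CPM, the UMIs of a gene per 1000000 UMIs of the summed cells. Gdf10 stood at 576 CPM (545 to 609) in the chosen cells and 89.9 CPM in the others, which is 6.41-fold higher (6.01 to 6.83). Cygb stood at 1178 and 302 CPM, 3.90-fold higher (3.73 to 4.07). After every cell was thinned to 2000 UMIs, Gdf10 was seen in 44% of the chosen cells (39.1% to 49.0%) and 11.7% of the others, and Cygb in 81% and 34.4%. Unthinned, Gdf10 was seen in 60.5% and 22.6%. In the same library 181 unchosen cells clustered apart from fibroblasts and should lack both genes. Their median depth was 4512 UMIs, and the thinned shares were 7.18% (3.88% to 12.0%) for Gdf10 and 17.7% for Cygb. The intervals of the chosen cells lay above these levels for both genes. Fibroblast RNA was present in the 181 cells too, with Pdgfra seen in 19.9% of them and Pi16 in 53.6% after thinning.

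The markers also went together among all 7141 kept cells, where no choice by score enters. Their choice with earlier results known remains a limit here too. At 2000 UMIs per cell F3 was seen in 630 cells. Fmo2 was seen in 31.7% of these (28.1% to 35.5%) and 5.85% of the cells without F3, Clec11a in 12.9% and 2.06%, Mgp in 49.4% and 10.3%, Gdf10 in 34.3% and 11.5%, and Cygb in 71.9% and 33.6%. The level of each score gene was also measured in the 400 cells ranked highest by the other 3. Mgp then stood at 2123 CPM against 175 CPM in the remaining cells (12.2-fold), Fmo2 at 694 against 42.3 (16.4-fold), F3 at 590.0 against 46.7 (12.6-fold) and Clec11a at 118 against 11.9 (9.84-fold). Leaving out F3, Clec11a or Fmo2 kept 366, 394 or 375 of the chosen cells, and leaving out Mgp kept 233. The same dropout and depth of 1 library lie behind all of these values.

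Clusters of the 7141 cells, made without the 4 score genes, split the chosen cells into kinds. There were 20 clusters, and 6 of them held 388 of the 400. Cluster 9 (306 cells) held 166, or 41.5% of the chosen cells, and these were 54.2% of the cluster (48.5% to 59.9%). Its leading genes were Fmo2, Cyp2f2, F3, Cxcl12, Inmt, Clec11a, C2, Igfbp3, Gas6 and Mgp, so the score genes led it although they had not made it. Cluster 8 held 62 chosen cells, cluster 11 held 60, cluster 2 held 40, cluster 4 held 39 and cluster 12 held 21. Another 10 clusters, with 3678 cells in all, held none. The markers of the label led cluster 9, and the chosen cells as a whole, which lay in several clusters, are named here by the rule that chose them.

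**Figure D2:**
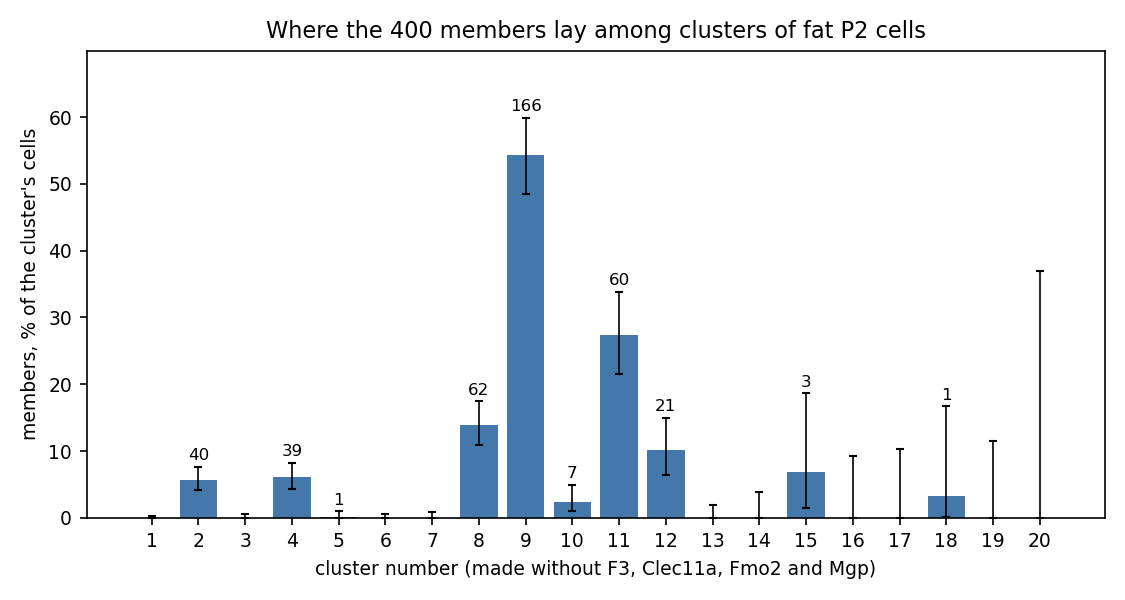
Share of each cluster's cells that were chosen. The x axis is the cluster number, the y axis is the percent of the cluster's cells, numbers above the bars are counts of chosen cells, and error bars are exact 95% binomial intervals for counting error. Cluster 9 stands highest at 54.2%, followed by cluster 11, and 10 clusters have no bar.

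The subsets differed in how they met the score. Mgp stood at 4108 CPM in the 166 cells of cluster 9, 4472 in cluster 8, 5214 in cluster 11, 3665 in cluster 2, 2949 in cluster 4 and 3503 in cluster 12. F3 and Fmo2 stood at 1236 and 1616 CPM in cluster 9, and at 95.5 and 162 CPM in cluster 8. At least 3 of the 4 score genes were seen in 95.2% of the cluster 9 cells and 94.9% of the cluster 4 cells, but in 17.7% of the cluster 8 cells and 21.7% of the cluster 11 cells. Of the 54 cells chosen on Mgp alone, 28 lay in cluster 8, 12 in cluster 11 and 1 in cluster 9. Of the 100 highest-ranked cells 65 lay in cluster 9, and of the last 100 chosen 25 did.

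Gdf10, which was not in the score, differed widely between the subsets. It stood at 1114 CPM in the cluster 9 cells (1042 to 1190), where 92.8% of cells had it. It stood at 549 CPM in cluster 2 and 579 CPM in cluster 4, but at 92.3 CPM in cluster 8, 94.7 CPM in cluster 12 and 12.4 CPM in cluster 11. The last 3 values are near or under the 89.9 CPM of the other kept cells. Cygb, also outside the score, was above the 302 CPM of the other cells in all 6 subsets and ranged from 596 CPM in cluster 11 to 1864 CPM in cluster 9.

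**Figure D3:**
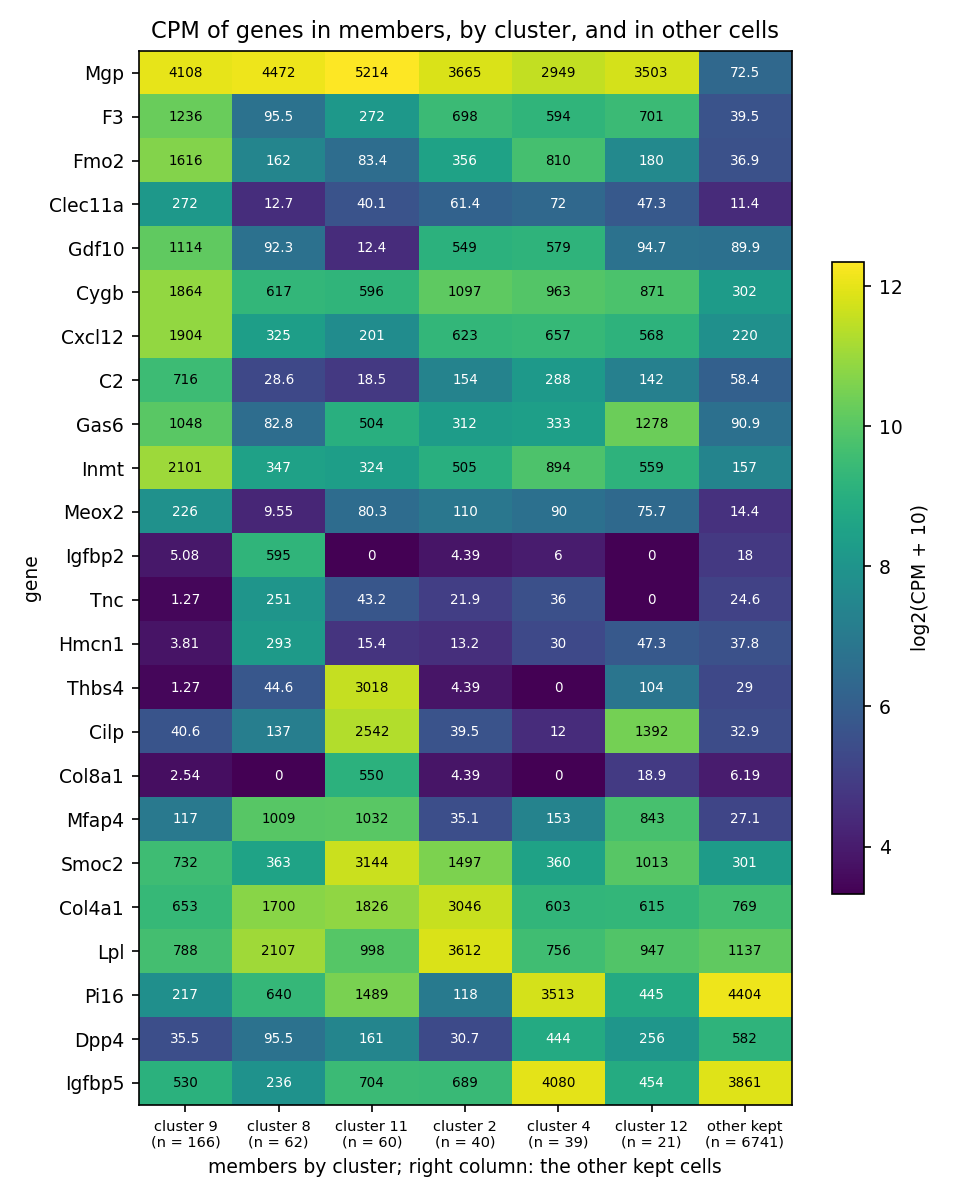
Levels of 24 genes in the chosen cells of 6 clusters and in the other kept cells. Rows are genes, columns are groups of cells with their number, colour gives log2(CPM + 10) and the printed value is CPM. Mgp is high in all 6 subsets, F3, Fmo2, Clec11a, Gdf10, C2 and Cxcl12 are highest in cluster 9, and Thbs4, Cilp and Col8a1 are highest in cluster 11.

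The 166 cells of cluster 9 carried secreted and metabolic genes together. Cxcl12, a chemokine that retains stem cells and leukocytes, stood at 1904 CPM there, and from 200.8 to 657 CPM in the 5 other subsets. C2, a complement protease, stood at 716 CPM (18.5 to 288 in the 5 others), and Inmt, an N-methyltransferase, at 2101 CPM (324 to 894). Gas6, the ligand of the TAM receptors, stood at 1048 CPM, though cluster 12 was higher at 1278 CPM. Meox2, a homeobox factor of mesoderm, was at 226 CPM and from 9.55 to 110 CPM elsewhere. Apoe, a carrier of lipid, was at 4656 CPM, and Pi16 was at 217 CPM against 4404 CPM in the other kept cells.

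The 140 cells of cluster 9 that the score did not choose had less of the score genes by construction, and the other genes of the cluster went both ways. Mgp stood at 259 CPM in them, F3 at 198 CPM and Fmo2 at 256 CPM. Gdf10 was at 590.0 CPM and Inmt at 1479 CPM, below the chosen cells of the cluster. Cxcl12 was at 2803 CPM, Igfbp3 at 3482 CPM, Apoe at 8064 CPM and the B-cell chemokine Cxcl13 at 477 CPM, above the 1904, 1642, 4656 and 81.2 CPM of the chosen cells. At a finer resolution of 2 a cluster of 120 cells held 112 of the chosen, and its leading genes began with Fmo2, Mgp, F3, Tspan11 and Clec11a.

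The 60 chosen cells of cluster 11 were of a matrix-rich kind. Thbs4, a thrombospondin of tendon and muscle matrix, stood at 3018 CPM in them and at 1.27 CPM in the cluster 9 cells. Cilp, a matrix protein of cartilage, stood at 2542 CPM and 40.6 CPM, and Col8a1, a short-chain collagen of vessel walls, at 550.0 CPM and 2.54 CPM. Smoc2, a calcium-binding matrix protein, was at 3144 CPM and Hmcn2 at 1514 CPM. Unselected cells of cluster 11 had Thbs4 at 667 CPM and Cilp at 822 CPM, below the chosen ones. The 21 chosen cells of cluster 12 shared Cilp, at 1392 CPM, but had Thbs4 at 104 CPM.

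The 3 other subsets had leading genes of their own. Several genes in this paragraph were chosen after their values were seen, as leading genes of their clusters. The 62 chosen cells of cluster 8 had Igfbp2, a binder of insulin-like growth factors, at 595 CPM, with at most 6.00 CPM in the 5 other subsets. They also had Tnc, tenascin C, at 251 CPM and Postn, periostin, at 5369 CPM. The 40 cells of cluster 2 had Lpl, lipoprotein lipase, at 3612 CPM, Col4a1, a basement membrane collagen, at 3046 CPM and Fabp4, a fatty acid binding protein, at 180 CPM. The 39 cells of cluster 4 kept the genes of interstitial progenitors, with Pi16 at 3513 CPM, Dpp4 at 444 CPM and Igfbp5 at 4080 CPM, close to the 4404, 582 and 3861 CPM of the other kept cells. These were not the leading genes of cluster 4 as a whole, which were H19, Scg3, Gdf10, Hmcn1, Nrep, Aoc3, Col4a1, Thy1, Cyp1b1 and Sned1. The median depth of the 39 chosen cells, 8050 UMIs, was the highest of the 6 subsets, against 4607 UMIs in cluster 9. The part of depth in their being chosen was not tested.

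The chosen cells were then compared with the other 6741 as sums. A gene was counted when it reached 50 CPM in 1 of the sums and the ratio, after adding 10 CPM to each, was at least 2-fold. Of 3386 genes, with the 4 score genes left out, 119 were higher (3.51%) and 142 were lower (4.19%), and the median log2 ratio was -0.05. The rule used the same contrast, so these counts describe the chosen cells and carry no test. The counts of every gene list below are to be read beside these shares of all genes, 3.51% and 4.19%. The highest ratios mixed the subsets. Thbs4 (459 against 29.0 CPM), Cilp (484 against 32.9 CPM) and Mfap4 (409 against 27.1 CPM) came first. The cluster 9 cells had them at 1.27, 40.6 and 117 CPM, and only Thbs4 was under the other kept cells there. With Mgp left out of the score Thbs4 turned direction, at 40.6 against 51.8 CPM, and Cilp and Mfap4 stood at 124 against 52.5 CPM and 132 against 42.1 CPM. Among the 166 cells of cluster 9 alone 174 genes were higher and 286 lower, and without these cells 105 were higher and 105 lower.

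**Figure D4:**
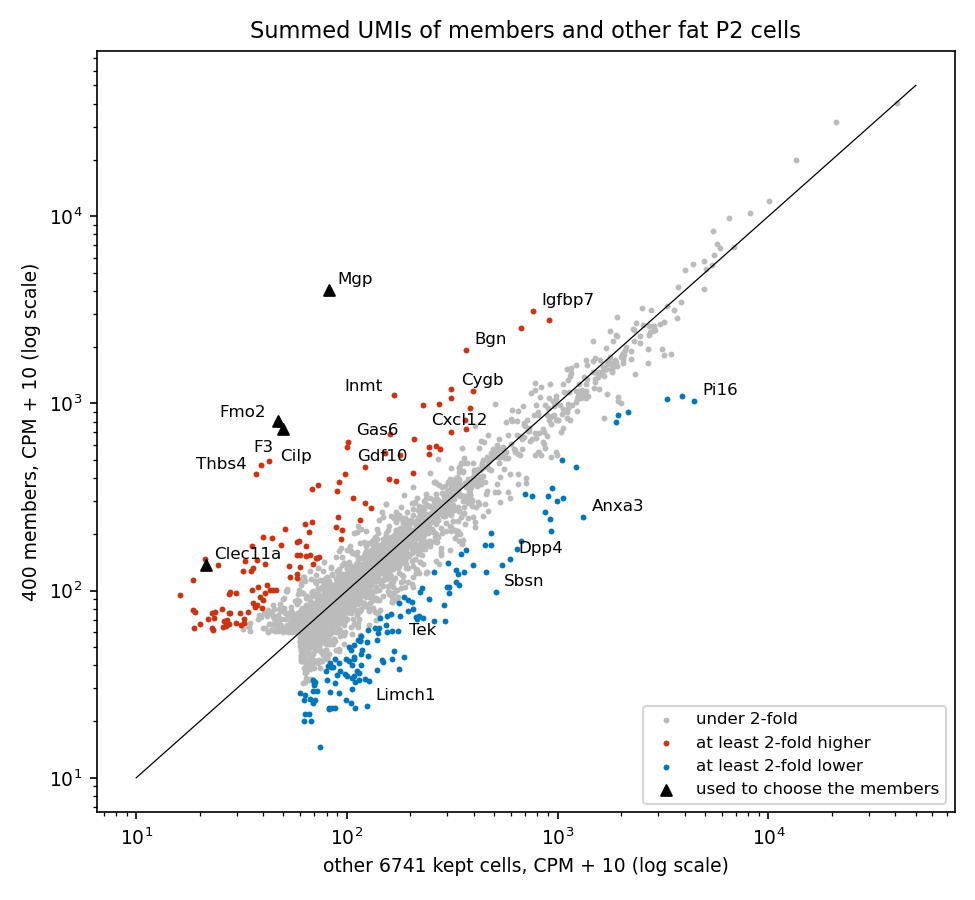
Summed levels in the chosen cells against the other kept cells. Each point is a gene at 50 CPM or more in 1 of the sums, both axes are CPM + 10 on log scales, the line marks equality and triangles mark the 4 genes that chose the cells. Red points, 119, lie at least 2-fold above and blue points, 142, at least 2-fold below.

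Of 10 further genes linked with regulatory stroma in fat, 5 reached 50 CPM and all 5 were at least 2-fold higher. Bgn (biglycan) stood at 1914 against 356 CPM, Igfbp3 at 983 against 262 CPM, Meox2 at 127 against 14.4 CPM, Epha3 at 96.8 against 31.8 CPM and Vit at 85.9 against 17.6 CPM. Their median log2 ratio was 1.87, beside -0.05 over all genes. This list was also written with earlier results of these data known, so it is no independent check of the label. The other 5 were under 50 CPM in both sums. Among them Abcg1, a sterol exporter used as a marker of these cells, stood at 11.9 against 2.52 CPM and Rspo1, a Wnt enhancer, at 30.1 against 4.67 CPM. By subset Bgn ranged from 1173 to 2383 CPM, above the other kept cells in all 6, and Vit from 6.18 CPM in cluster 11 to 184 CPM in cluster 9.

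Genes of interstitial progenitors were lower. Of 11 measured members 10 were at least 2-fold lower and 0 were higher, with a median log2 ratio of -1.87. Pi16, a peptidase inhibitor and the best known marker of these cells, stood at 1019 against 4404 CPM. Dpp4 stood at 138 against 582 CPM, Anxa3 at 236 against 1315 CPM, Cd55 at 116 against 449 CPM, and Limch1 at 14.2 against 115 CPM. Pi16 was lowest in clusters 2 and 9 (118 and 217 CPM) and stood at 3513 CPM in cluster 4. The 4 genes of a Cxcl13 or Dmkn kind of stroma were all lower, such as Sbsn at 88.1 against 497 CPM.

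Of 9 measured genes of committed preadipocytes 3 were at least 2-fold higher and 0 were lower, with a median log2 ratio of 0.72. The 3 were the adhesion receptor Icam1 (141 against 63.4 CPM) and the collagens Col4a2 (724 against 356 CPM) and Col15a1 (562 against 266 CPM). The master regulator of the adipocyte, Pparg, was low in both, at 9.14 against 14.6 CPM, and stood at 2.54 CPM in cluster 9 and 39.5 CPM in cluster 2. Lpl, at 1394 against 1137 CPM, and Fabp4, at 44.8 against 64.4 CPM, were under 2-fold. Of 8 adipocyte markers 7 were at 0 in the chosen cells. The list was low in both groups, with a sum of 0.457 against 8.49 CPM.

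Around F3, the coagulation list had 12 measured members, of which 1 was higher, 1 was lower and the median log2 ratio was -0.04. Gas6, a vitamin K dependent protein as Mgp is, stood at 615 against 90.9 CPM. Procr, the protein C receptor, stood at 61.7 against 220 CPM. The inhibitor of the F3 pathway, Tfpi, stood at 56.2 against 49.2 CPM, and the thrombin receptor F2r, under the minimum, at 47.0 against 7.02 CPM. Thbd, the gene of thrombomodulin, and the plasminogen activator Plat were lower by less than 2-fold, at 135 against 253 CPM and 328 against 568 CPM.

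Around Clec11a and Mgp, 8 genes of bone and cartilage matrix were measured, with 2 higher and 1 lower. Bgn and Cilp were the higher ones. Itga11, the integrin chain known as the receptor of Clec11a, was lower at 44.8 against 106 CPM. The higher level of Clec11a itself was set by the choice of cells. Cluster 9 had Clec11a at 272 CPM and Itga11 at 17.8 CPM, and cluster 11 had them at 40.1 and 89.6 CPM. The mineral matrix genes Ibsp and Spp1 were at 0 in the chosen cells.

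Around Gdf10, a set of 10 ligands and antagonists of the BMP and TGF-beta family were measured beside the score gene Mgp. Gdf10 was higher, Tgfb2 was lower (32.9 against 97.9 CPM), and the median log2 ratio was 0.13. Bmp4 stood at 66.2 against 41.9 CPM and the follistatin Fst at 239 against 276 CPM. Of 7 measured Wnt genes the antagonists Sfrp1 (146 against 56.8 CPM) and Dkk3 (69.0 against 8.51 CPM) were higher, and the ligands Wnt2 (79.5 against 185 CPM) and Wnt10b (11.9 against 56.2 CPM) were lower. By subset Wnt2 stood at 185 and 177 CPM in clusters 8 and 4 and at 22.8 CPM in cluster 9. Dkk3 was highest in cluster 9, at 127 CPM, and was at 0 in cluster 2.

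Around Fmo2 and Cygb, 15 genes of oxidation and detoxification were measured, of which Cygb and Cyp1b1, a cytochrome P450 (143 against 53.9 CPM), were higher and 0 were lower. In the retinoid list the carrier Rbp4 (66.2 against 17.7 CPM) and the dehydrogenase Adh1 (145 against 49.9 CPM) were higher. Aldh1a3, which makes retinoic acid, was lower at 28.3 against 166 CPM. Of 15 genes of sterol and lipid handling Apoe (2767 against 903 CPM), Pltp (217 against 53.4 CPM) and the transporter Abca8a (585 against 253 CPM) were higher and 0 were lower. Apoe was above the other cells in all 6 subsets, from 1093 CPM in cluster 11 to 4656 CPM in cluster 9.

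Matrix genes were counted by list, beside 3.51% of all measured genes higher and 4.19% lower. Of 12 fibril and network collagens Col8a1 was higher (85.0 against 6.19 CPM). Of 14 basement membrane genes Col4a2, Col15a1 and Smoc2 (1063 CPM, 3.53-fold) were higher. Of 20 elastic fibre genes 5 were higher, among them Mfap4 and Ltbp4 (635 against 199 CPM), and 3 were lower, among them Efemp1 (302 against 1049 CPM) and Emilin2 (166 against 474 CPM). The small proteoglycans Bgn and Podn (410 against 87.4 CPM) were higher, of 9 measured. Of 18 proteases and inhibitors Mmp3, a stromelysin (1162 against 388 CPM), and Timp1 were higher. Mfap4 stood at 117 and 35.1 CPM in clusters 9 and 2, beside 27.1 CPM in the other kept cells. In clusters 8, 11 and 12 it was higher, at 843 to 1032 CPM.

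Signals to neighbouring cells were mixed. Of 12 chemokines and cytokines 4 were higher and 4 were lower, and Cxcl12 (976 against 220 CPM), Cxcl14 (675 against 151 CPM) and the stem cell factor Kitl (163 against 54.0 CPM) were among the higher. Cxcl10 (4.57 against 64.3 CPM) and Il33 (63.5 against 210 CPM) were among the lower. Cxcl14 was highest in cluster 11, at 1974 CPM, where Cxcl12 was lowest. Of 17 ligands that act on vessels 4 were higher, namely Vegfc (65.8 against 17.7 CPM), Angpt2 (53.4 against 8.74 CPM), Angptl1 (125 against 42.9 CPM) and the vasodilator Adm (238 against 80.4 CPM). Angptl1 rested mostly on cluster 11, with 534 CPM there and 53.6 CPM in the other chosen cells. Fgf2, Sema3b and Sema3c were lower, and Vegfa stood at 70.3 against 97.1 CPM. In the insulin-like growth factor system Igf1 (528 against 235 CPM), Igfbp2, Igfbp3 and Igfbp7 (3097 against 756 CPM) were higher and Igfbp5 was lower (1092 against 3861 CPM), of 9 measured. Igfbp2 rested on cluster 8, with 187 of its 194 UMIs. Its log2 ratio was 1.82, but -1.08 with Mgp left out of the score and -0.89 with only the cluster 9 cells.

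Of 21 transcription factors of mesenchyme, Meox2, Meox1 (53.0 against 12.96 CPM) and Nr2f2 (171 against 48.0 CPM) were higher, and Creb5 (127 against 531 CPM), Osr2 (49.8 against 144 CPM) and Ebf2, a factor of adipose precursors (115 against 250 CPM), were lower. The related factors Meox2 and Meox1 were high in different subsets: Meox2 led in cluster 9 (226 CPM) and Meox1 in cluster 11 (195 CPM, against 11.4 CPM in cluster 9). Of 19 immediate early genes, which tissue dissociation can raise, 1 was higher, Ier3, at 230 against 105 CPM. That count is near the 3.51% higher over all genes, and the median log2 ratio was 0.29. Of 9 interferon response genes 3 were lower, among them Ifit1 (15.1 against 58.8 CPM). The other kept cells took in cluster 6, with 581 cells of which 0 were chosen. Its leading genes began with Ifit1, Rsad2, Ifit3, Isg15, Slfn2 and Cxcl10, and its part in these differences was not tested. No gene of the proliferation list reached 50 CPM.

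The genes of the sort gate were read in the same cells. Pdgfra stood at 612 against 437 CPM and Eng, the gene of CD105, at 64.4 against 44.3 CPM. Tek, the gene of Tie2, was lower at 63.0 against 169 CPM (2.68-fold lower), and at 2000 UMIs per cell it was seen in 11% of the chosen cells and 27.0% of the others. Tek was near 20 CPM in the chosen cells of clusters 9 and 8 and at 159 CPM in those of cluster 4. Ly6a, the gene of Sca1, stood at 992 against 1988 CPM. Ptprc, the gene of CD45, was at 0.914 CPM, and Pecam1 was at 0 by the filter.

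Markers of other cell types stood beside these differences. Fibroblast genes were present in all 400, with Dcn at 20023 CPM and Col1a1 at 8363 CPM. The mural list summed to 154 CPM in the chosen cells and 69.7 CPM in the others, and 10% and 2.80% of cells had at least 3 of its UMIs. Most of that sum was the channel subunit Abcc9 (87.2 against 19.8 CPM), which was at 160 CPM in cluster 9. The pericyte genes Kcnj8 (24.2 against 12.2 CPM), Notch3 (18.3 against 11.7 CPM) and Cspg4 (13.7 against 4.59 CPM) also stood above the others. The contractile gene Acta2 was at 2.28 against 6.92 CPM. Rgs5, Cnn1 and Higd1b were at 0 in the chosen cells and at 0.999, 0.325 and 0.0499 CPM in the others. Of 12 endothelial genes 6 were at 0, among them Pecam1 and Cdh5 by the filter. Plvap stood at 56.6 against 17.5 CPM and Ptprb at 9.14 against 0.125 CPM, and 2.50% and 0.860% of cells had at least 3 UMIs of the list. The tendon list summed to 532 against 53.2 CPM, and 13.5% and 2.29% of cells had at least 3 of its UMIs. Thbs4 gave 459 of the 532 CPM, Fmod stood at 45.7 against 1.22 CPM and Tnmd at 6.40 against 1.35 CPM. Scx and Mkx were at 0 in the chosen cells and at 0.275 and 0.0749 CPM in the others. The part of these cell types in the differences was not tested. Of the lists of cells other than fibroblasts, the Schwann list had the largest shares. At least 3 of its UMIs were in 31.25% of the chosen cells and 23.75% of the others. Leaving out cells with at least 3 UMIs of such lists took out 167 of the chosen cells (41.8%) and 2045 of the others (30.3%). After the choice was made again 132 genes were higher and 148 lower, of which 106 and 126 were among those above. The median Scrublet doublet score was 0.0382 in the chosen cells and 0.0587 in the others, and the highest scores of the library took in 7.25% and 5.62% of them.

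Along the ranking most differences were graded and ran past rank 400. Gdf10 stood at 794, 706, 409 and 444 CPM in successive bands of 100 chosen cells, then at 280 CPM in the next 400 cells and 78.2 CPM in the rest. Cygb stood at 1593 CPM in the first 100 and 922 CPM in the last 100 chosen, then at 815 and 271 CPM. Thbs4 stood at 1009 and 176 CPM, then at 143 and 22.0 CPM. Cxcl12 did not follow the rank among the chosen, with 971, 1031, 908 and 997 CPM, and was at 872 CPM in the next 400 cells and 180 CPM beyond. Pi16 stood at 612, 1011, 959 and 1425 CPM in the chosen bands, at 1358 CPM in the next 400 cells and at 4591 CPM beyond. The 400 cells just outside the limit were thus nearer to the chosen cells than to the rest for Cygb, Cxcl12, Apoe and Pi16.

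**Figure D5:**
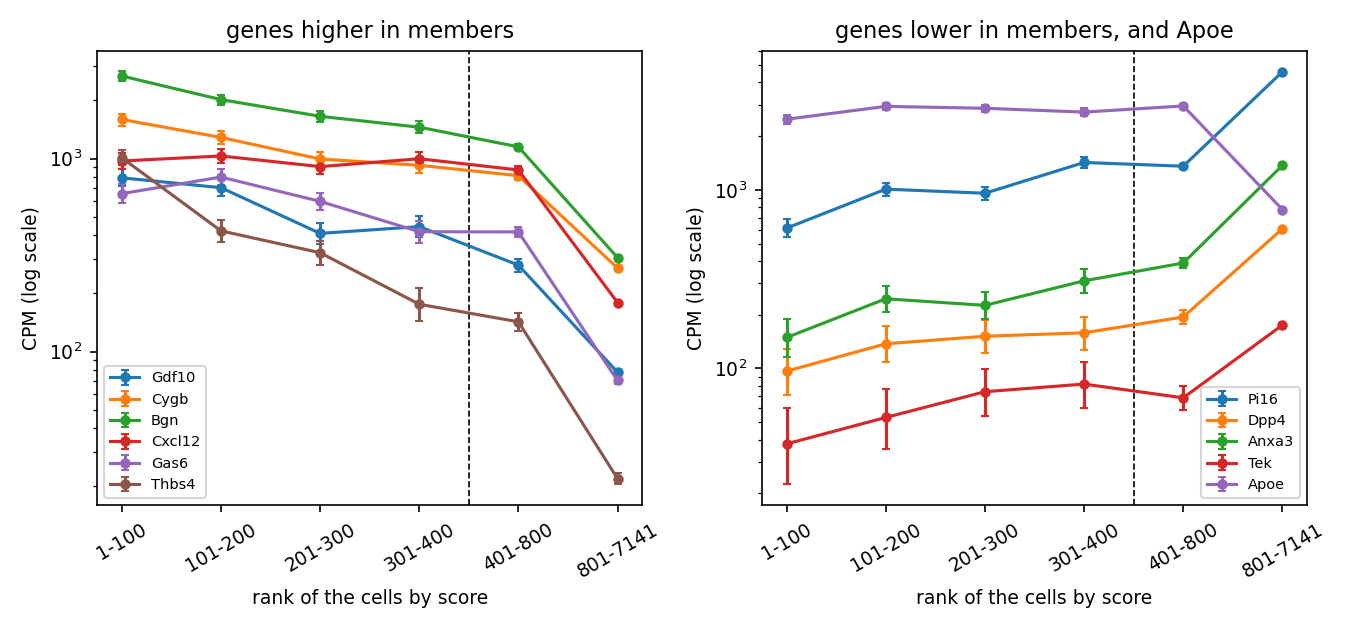
Levels of 11 genes by rank of the score in fat P2. The x axis gives bands of rank, the y axis CPM on a log scale, points are sums over the band and error bars are exact 95% Poisson intervals for counting error, and the dashed line is the limit at rank 400. Gdf10, Cygb, Bgn, Gas6 and Thbs4 are higher and Pi16, Dpp4 and Anxa3 lower in the chosen bands, and the next 400 cells lie nearer to the last chosen band than to the rest.

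The same score was applied to lung P2, where 42 of 751 kept cells (5.59%) were chosen, with 179322 UMIs in all, so that 3 counts equal 16.7 CPM. There the score was almost a measure of Mgp, which stood at 51940 CPM in the chosen and 11049 CPM in the other lung cells. Of 4213 genes 163 were higher (3.87%) and 296 were lower (7.03%). Of the 119 genes higher in fat 96 were measured in lung, and 23 of them were higher, 8 were lower and the median log2 ratio was 0.34. Cilp (94.8 against 3.22 CPM), Clec11a (a score gene), Gdf10 (167 against 70.8 CPM), Cygb (608 against 227 CPM), Bgn and Igfbp7 were higher in the lung cells too. Fmo2, also in the score, was lower at 1930 against 4013 CPM, and Inmt, Ctgf and Igfbp3 were also lower. Thbs4 was at 0 in both lung groups, and F3 stood at 78.1 against 57.5 CPM, or 0.38 on the log2 scale. Of the 142 genes lower in fat 42 were measured in lung, with 2 higher and 6 lower. The difference between the tissues was not tested, as each has 1 library.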

How the data were processed

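Sorted cells of mouse fat and lung were measured in 4 single-cell libraries, 1 per group, with the 10x Chromium 3′ kit v3.1 per the labels' protocols. The deposited matrices hold counts (UMIs) per gene and cell barcode, not normalized. Cell Ranger 3.1.0 and mm10 are named in the submitters' processing notes, and the annotation release is not given in the sources used here. Of 31053 gene entries, those sharing a symbol were summed, which gave 31017 symbols.

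The 4 libraries held 1305 to 9025 barcodes and 1510443 to 44711105 UMIs. Fat P2, with 44711105, was the deepest, and the filters kept 7141 of its 9025 barcodes (1779 had under 2000 UMIs and 672 were over the mitochondrial limit). Summed UMIs were scaled to CPM, and log2 ratios were taken after adding 10 CPM. Intervals are exact Poisson for CPM, conditional binomial for ratios and Clopper-Pearson for shares, all for counting error alone. No test was run, since each group is 1 library. Clusters used 2000 variable genes without the score genes, 30 components, 15 neighbours and Leiden resolution 1 (leidenalg 0.10.2, scanpy 1.11.5). Doublets were scored with Scrublet, whose automatic threshold marked 6 cells and was not used. As an alternative the 408 highest scores (5.71%) were removed. The arithmetic of the comparison was tested on simulated sums with known fold changes. These held no spread between cells and no choice by score.

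The chosen cells and the 38 gene lists were set with earlier results of these data known. Named genes are the score genes, the other given markers, the sort gate genes, the 25 highest and 15 lowest ratios and up to 5 members per list with the largest ratios past 2-fold. Any other gene was chosen after its values were seen, such as the leading genes of clusters and list members under 2-fold. Tissue markers contradicted the labels of both P1 libraries, which are used here for shared barcodes alone. Promoter sequences are from RefSeq (GRCm38.p6). Alternatives covered the pseudocount, the minimum level, the scaling, the number of cells chosen, the score, the depth filter, doublets, other cell types and the clusters. The retinoid list is not reported in full here.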

Additional observations from a re-analysis of the deposited data

Results flagged for a closer look

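Of the 119 genes higher in the chosen fat P2 cells, 8 were at least 2-fold lower when the same score was applied to lung P2. Those among the named genes were Inmt, Ctgf and Igfbp3, and the difference between the tissues was not tested. Inmt had a log2 ratio of 2.73 in fat and -1.33 in lung (2247 against 5672 CPM). Ctgf had 2.81 in fat and -1.37 in lung (190 against 506 CPM). Igfbp3 had 1.87 in fat and -1.08 in lung (351 against 754 CPM). The lung values rest on 42 cells with 179322 UMIs, and Mgp was at 11049 CPM in the lung cells that were not chosen.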

How the results depend on the processing

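No paired analysis was possible because each group has 1 library. The main counts of 119 higher and 142 lower genes stayed within 1.5 times under every alternative run except these. With a pseudocount of 50 CPM they were 60 and 66, and with no minimum level 192 and 214. With only the cluster 9 cells 286 genes were lower. The largest share of the chosen cells in 1 cluster was 166 cells, 166 at resolution 0.5, 174 with the score genes in the clustering and 112 at resolution 2. A minimum of 20 CPM and no minimum change only which genes are counted, so the 99 ratios under each could not move. Of 1683 ratios of 99 named genes, with these included, 1002 moved by less than their counting error. Another 674 moved by more than that without changing sign, and 7 changed sign. With Mgp left out of the score these were Thbs4 at -0.29, Igfbp2 at -1.08 and Krt19 at 0.06. With only the cluster 9 cells they were Thbs4 at -1.79, Col8a1 at -0.37, Igfbp2 at -0.89 and Meox1 at -0.10. The settings that used cluster 9 and the other cluster settings were chosen after seeing the data. A gene at 0 in the sum of the chosen cells can stand at up to 3 counts of 2189366 UMIs.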
